A study of Mus musculus with 21 samples.

Results

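MHC class I molecules and the immunoproteasome form the route by which a cell shows fragments of its own proteins at its surface. The immunoproteasome cuts proteins into peptides, the TAP transporter carries the peptides into the endoplasmic reticulum, and tapasin helps to load them onto a heavy chain paired with beta-2-microglobulin. Interferons, which signal through JAK1, are known to raise these genes together. Neurons of the healthy brain are known to carry little class I on their surface.

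The 10 genes of this route examined here were chosen by symbol, and all 10 were found among the 24391 symbols of the count files. They were the heavy chains H2-K1 and H2-D1, their partner B2m, the transporter chains Tap1 and Tap2, the loading factor Tapbp (tapasin), the inducible catalytic subunits Psmb8, Psmb9 and Psmb10, and Nlrc5, a coactivator of class I transcription. Each was measured in 21 RNA-seq libraries of newborn (P0) C57BL/6 mice, which cover brain, liver and skin. In each tissue there were 2 Jak1 KI mice and 5 WT mice, with 1 library per mouse and tissue. The KI mice were heterozygous for an allele with H595D in JAK1 and the silent changes I596I and Y597Y ("Jak1 KI +/-" in the labels), and the WT mice carried no introduced change. The study describes KI mice as offspring of a mosaic male, since heterozygous mice died young. Per its methods, RNA integrity was lower in the skin than in the liver.

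The libraries held between 26549326 and 38388133 reads counted on genes. Jak1 itself was not called in any tissue, with log2 fold changes in KI mice of 0.21, 0.30 and 0.18 in brain, liver and skin. The tissue labels were checked against marker lists. The 8 neuron markers were all higher in WT brain than in WT liver or skin, the 8 hepatocyte markers were all highest in WT liver, and the 7 epidermis markers were all higher in WT skin than in either other tissue. The summed hepatocyte markers nevertheless reached 42.7, 46.6, 308, 988 and 2051 CPM (read counts scaled to a common library size) in the brains of WT mice 1 to 5, and 768 and 847 CPM in those of KI mice 1 and 2.

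Of the 10 genes, 7 lie on chromosome 17 of the NCBIM37 (mm9) genome. Psmb9 (34318932 to 34324697, minus strand), Tap1 (34324498 to 34334170, plus), Psmb8 (34334666 to 34338399, plus) and Tap2 (34340472 to 34353266, plus) stand next to each other. H2-K1 (34132962 to 34137278, minus), Tapbp (34052844 to 34066235, plus) and H2-D1 (35399675 to 35404444, plus) lie around them. B2m is on chromosome 2 (121973422 to 121978819, plus), and Psmb10 (108459628 to 108462292, minus) and Nlrc5 (96996663 to 97051172, plus) are on chromosome 8. Exons of Tap1 and Psmb9 overlapped on opposite strands over 3.87% and 5.48% of their exonic bases. Tap2, Psmb8 and Tapbp shared 18.5%, 6.83% and 1.85% of their exonic bases with other gene models. Since the library kit does not mark strand, reads from the shared bases cannot be told apart. Of the windows of 100 bases in the longest transcript, 4.64% in H2-D1 and 0% in H2-K1 were identical to a stretch of another gene's protein-coding transcript. Near-identical stretches and non-coding gene models were not searched.

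The bases just before the start of transcription are shown for H2-K1, H2-D1, B2m and Tap1. They come from RefSeq on the GRCm38.p6 build, which differs from the build of the counts, and 8 of the 10 genes had an entry; Tap2 and Nlrc5 had none. Each line gives the 200 bases upstream of the annotated start, 5′ to 3′ on the gene's own strand. Capitals mark a match to the interferon regulatory factor core (AANNGAAA), the NF-kB consensus, TGACG (a CRE-like box bound by factors that act with NLRC5) or CCAAT, on either strand.

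H2-K1, chr17:34000348-34000547, minus strand: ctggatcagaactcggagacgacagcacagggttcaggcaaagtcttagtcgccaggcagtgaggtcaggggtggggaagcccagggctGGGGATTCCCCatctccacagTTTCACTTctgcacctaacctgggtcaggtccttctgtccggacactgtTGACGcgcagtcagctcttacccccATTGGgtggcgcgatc
H2-D1, chr17:35262894-35263093, plus strand: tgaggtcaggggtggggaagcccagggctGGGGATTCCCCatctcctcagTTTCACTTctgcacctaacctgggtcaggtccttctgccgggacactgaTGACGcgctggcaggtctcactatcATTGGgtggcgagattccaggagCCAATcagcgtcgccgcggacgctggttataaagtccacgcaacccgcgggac
B2m, chr2:122147487-122147686, plus strand: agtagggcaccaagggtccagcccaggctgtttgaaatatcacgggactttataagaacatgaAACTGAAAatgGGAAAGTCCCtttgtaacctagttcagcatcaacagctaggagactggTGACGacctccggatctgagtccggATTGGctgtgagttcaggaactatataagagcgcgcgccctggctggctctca
Tap1, chr17:34187356-34187555, plus strand: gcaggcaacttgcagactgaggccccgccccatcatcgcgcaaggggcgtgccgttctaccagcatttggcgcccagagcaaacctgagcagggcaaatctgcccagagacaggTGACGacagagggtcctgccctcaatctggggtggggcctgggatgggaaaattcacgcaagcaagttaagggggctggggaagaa

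H2-K1, H2-D1 and B2m, which encode the parts of the class I molecule itself, each held all 4 motifs. In H2-K1 and H2-D1 the NF-kB consensus came first and the interferon regulatory factor core second, and in B2m their order was turned around, while TGACG and CCAAT followed in all 3 genes. Aligned on the NF-kB consensus, the upstream bases of H2-K1 and H2-D1 were identical at 166 of 190 positions (87.4%). Over the 250 bases upstream of all 32851 RefSeq starts, the interferon regulatory factor core was found in 21.3%, the NF-kB consensus in 3.90%, TGACG in 17.8% and CCAAT in 33.8%, and the first 2 were found together in 0.67%. In RefSeq on GRCm38.p6, Psmb9 and Tap1 start 225 bases apart and run away from each other, whereas their NCBIM37 models given above overlap. By the RefSeq starts, the TGACG of the Tap1 line also stands before Psmb9, as does a CCAAT upstream of the bases shown. In Psmb8 and Psmb10 none of the 4 motifs was found in this window, and in Tapbp only CCAAT was. For each gene only the first listed RefSeq start was examined, so bases before any other start were not searched.

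**Figure D1:**
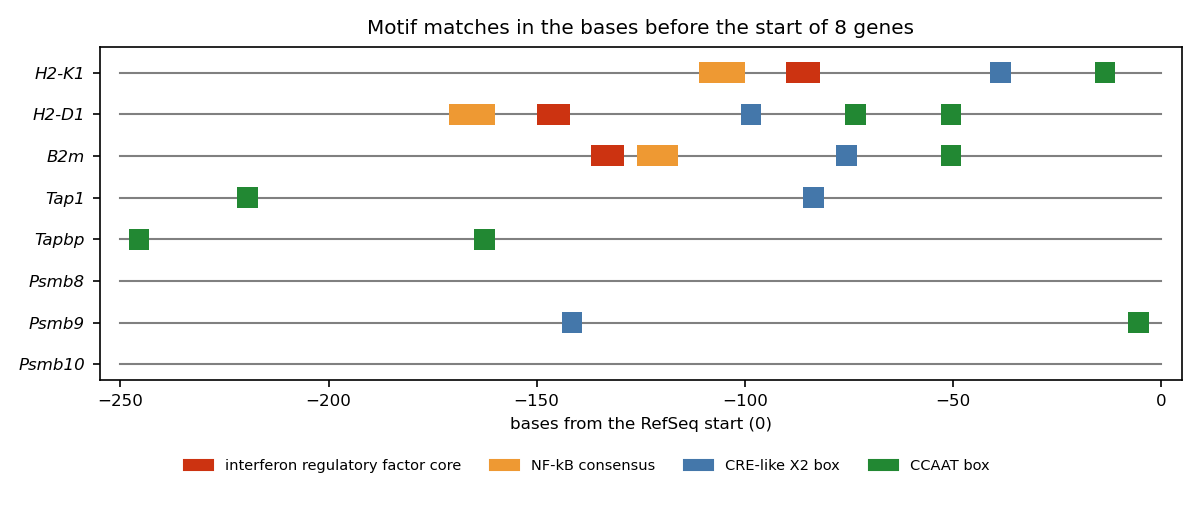
Matches to 4 motifs in the 250 bases before the RefSeq start of 8 genes, with the distance from the start in bases on the x axis and 1 gene per row. H2-K1, H2-D1 and B2m hold all 4 motifs, and Psmb8 and Psmb10 hold none.

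To describe the baseline, the WT libraries of the 3 tissues were compared. The class I genes were low in the brain: 9 of the 10 were called lower in WT brain than in WT liver at an adjusted p under 0.1 (edgeR quasi-likelihood test, Benjamini-Hochberg over 17071 genes), and 9 of 10 were lower than in WT skin. Such calls were common between these tissues: 40.2% of all genes tested were lower and 43.3% higher than in the liver, and 40.3% were lower than in the skin. The median log2 fold change of the 10 genes was -3.75 against the liver and -2.50 against the skin, beside 0.06 and -0.02 for all genes tested. The summed leukocyte markers also differed, from 113 to 168 CPM in WT brain, from 296 to 370 CPM in WT skin and from 4425 to 5479 CPM in WT liver, and their part in the result was not tested. Of the 24 leukocyte markers, Cd8a, Cd8b1 and Ncr1, which mark cytotoxic T and natural killer cells, had no read in any WT brain. Cd8b1 also had no read in the KI livers or KI skins. Cd8a and Cd8b1 were too low over the 21 libraries to be tested there. In whole tissue, fewer cells that express a gene and less RNA per cell cannot be told apart.

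The heavy chain H2-K1 showed the greatest distance of the 10 genes between WT brain and WT liver. It was at 7.06, 11.2, 7.67, 8.92 and 14.2 CPM in the 5 WT brains, at 290, 321, 313, 273 and 296 CPM in the 5 WT livers and at 127, 113, 143, 61.8 and 102 CPM in the 5 WT skins. The 3 tissues did not overlap, and the log2 fold change of brain against liver was -4.93 (SE 0.245, edgeR adjusted p = 2.37e-11). Against the skin it was -3.47, beside -3.85 for Tap2 and -3.48 for Psmb8.

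H2-D1, the other classical heavy chain of this strain, differed less. Its 5 WT brains held 12.6, 14.95, 14.8, 17.0 and 34.0 CPM, its livers 87.4 ± 5.40 CPM (SD, n = 5) and its skins 59.3 ± 9.76 CPM (SD, n = 5). The log2 fold change was -2.23 (SE 0.229, edgeR adjusted p = 1.69e-07) against the liver and -1.66 (SE 0.225, edgeR adjusted p = 5.26e-06) against the skin. The highest brain, WT mouse 5, lay apart from the other 4 but below every liver and skin.

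Among the remaining genes, B2m was at 66.5 ± 13.2 CPM in WT brain, 850 ± 53.4 CPM in WT liver and 302 ± 62.2 CPM in WT skin (SD, n = 5), a log2 fold change of -3.68 for brain against liver. The same difference was -2.79 for Tap1, -3.85 for Tap2 and -2.31 for Tapbp, the genes that move and load peptides. It was -4.60 for Psmb8, -4.39 for Psmb9 and -3.82 for Nlrc5, whose brain libraries held between 10 and 33 reads. Psmb9 rested on between 14 and 46 reads in the WT brains.

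Psmb10, the third inducible subunit of the proteasome, did not share this pattern. It was at 35.3, 35.7, 31.7, 31.2 and 66.0 CPM in the WT brains, at 42.6, 41.6, 43.5, 38.4 and 45.3 CPM in the WT livers and at 23.6, 21.5, 29.0, 15.6 and 26.5 CPM in the WT skins. Brain and liver overlapped (log2 fold change -0.08, SE 0.201, edgeR adjusted p = 0.731), and every brain was above every skin (0.79, SE 0.202, edgeR adjusted p = 0.00235, where 39.1% of all genes were higher). With library totals in place of trimmed-mean (TMM) scaling, a setting added after the data were seen that moved the median of all genes from 0.06 to 0.85, Psmb10 was called higher in brain than in liver (0.70, edgeR adjusted p = 0.00324), and the other 9 genes were still called lower.

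WT liver and WT skin stood closer. With TMM scaling, 9 of the 10 genes were called higher in the liver (32.5% of all genes were, and 39.8% were lower), with Tap2 at a log2 fold change of 0.00 and H2-K1 and B2m at 1.45 and 1.49. With library totals, under which the median of all genes moved from -0.10 to -0.81, H2-K1 (0.74), B2m (0.78) and Psmb9 (0.58) were called higher in the liver, Tap1 (-0.38) and Tap2 (-0.70) were called lower, and the other 5 were not called. The call was therefore the same under both scalings for H2-K1, B2m and Psmb9. Psmb8 (0.41), Nlrc5 (0.58), Psmb10 (0.15) and Tapbp (0.06) kept their sign without a call, H2-D1 (-0.15) changed its sign without a call, and Tap1 alone was called in opposite directions.

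**Figure D2:**
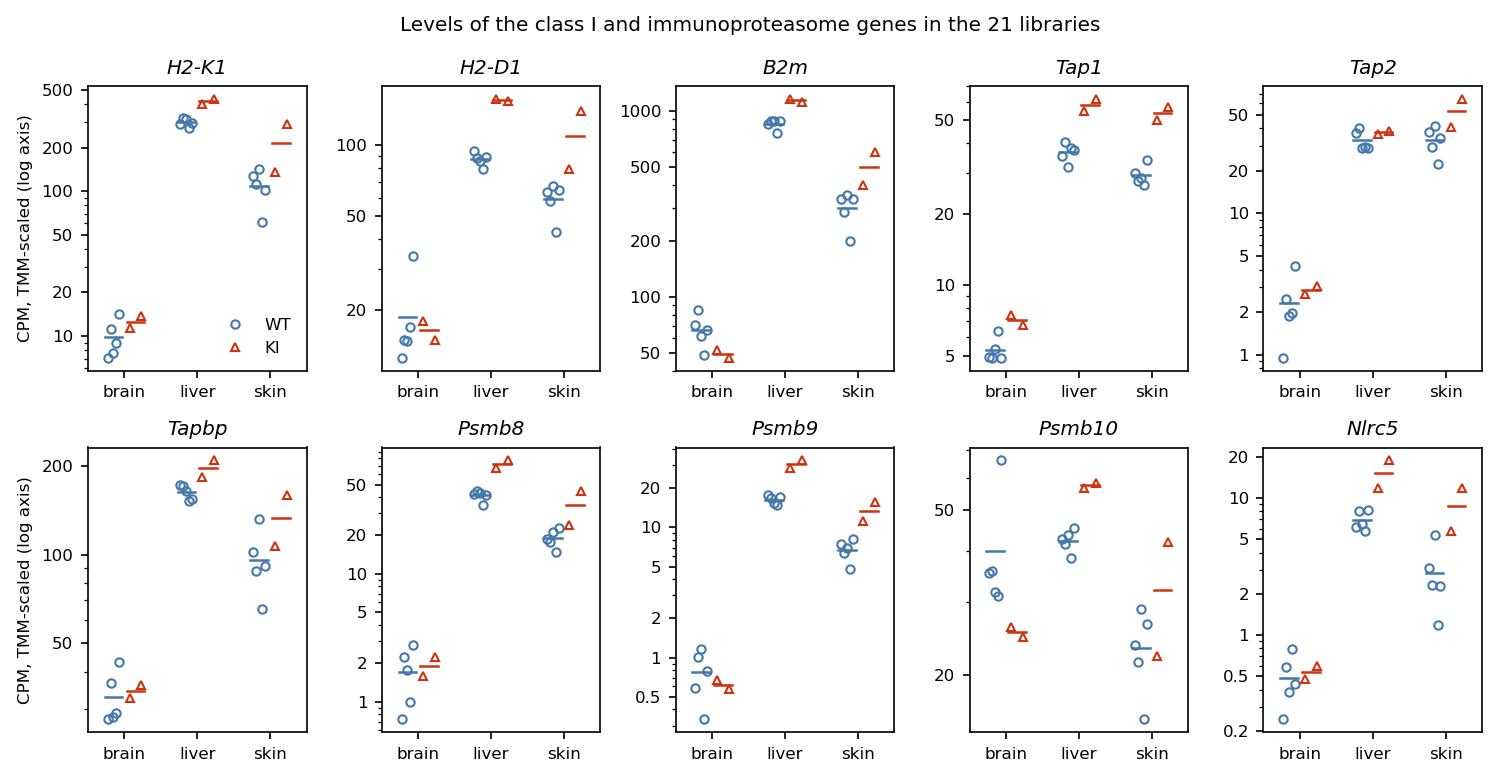
CPM with TMM scaling (log axis, a scale of its own in each panel) of the 10 genes in brain, liver and skin, with a circle for each of the 5 WT libraries, a triangle for each of the 2 KI libraries and a bar at the mean. Brain libraries lie below all liver and skin libraries in every panel but that of Psmb10, though the highest brain of H2-D1 (34.0 CPM) is close to the lowest skin (42.8 CPM), and the KI livers lie above all WT livers in every panel but that of Tap2.

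Levels of different genes were set side by side per transcript length, as TPM (reads per base of transcript, scaled to the same sum in each library). B2m led in each WT tissue, at 253 ± 50.5 TPM in the brain, 1574 ± 103 TPM in the liver and 1081 ± 222 TPM in the skin (SD, n = 5). In liver and skin H2-K1 came next, at 296 ± 20.05 and 209 ± 58.9 TPM. In the brain Psmb10 came next, at 101 ± 24.1 TPM, and its range of 86.3 to 143 TPM overlapped with neither B2m above it nor Tapbp below it (36.8 ± 4.42 TPM).

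Lower in the brain's order, H2-D1 (28.3 ± 9.61 TPM) overlapped with Tapbp above it and with H2-K1 (19.7 ± 4.11 TPM) below it. Below these and apart from them, Tap1 (5.91 ± 1.13 TPM), Psmb8 (3.36 ± 1.45 TPM), Tap2 (2.12 ± 0.896 TPM) and Psmb9 (1.89 ± 0.869 TPM) followed, and the ranges of neighbours in this order overlapped. Nlrc5, a non-coding model in the annotation used for lengths, was lowest in all 3 tissues, at 0.233 ± 0.110 TPM in the brain, 1.59 ± 0.223 TPM in the liver and 1.26 ± 0.663 TPM in the skin.

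To ask how these genes stood with the KI allele, the KI libraries of a tissue were set against its WT libraries. In the liver, 8 of the 10 genes were called higher in KI mice and none lower, beside 3.89% and 1.68% of the 14966 genes tested. The median log2 fold change of the 10 was 0.60, beside -0.02 for all genes. In 9 of the 10 genes the KI livers were both higher than any WT liver, as they were in 12.1% of all genes. Leukocyte marker RNA moved the same way: 14 of the 21 leukocyte markers tested were called higher, among them Klrb1c (log2 fold change 1.34), Cd52 (0.89), Ptprc (0.70), Cd79b (0.68) and S100a8 (0.64), and their sum was 6894 and 8310 CPM in the 2 KI livers against 4425 to 5479 CPM in the WT livers. Its part in the result was not tested.

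RNA of the 3 genes that encode the class I molecule rose in KI liver. H2-D1 was at 157 and 155 CPM in the KI livers against 94.4, 88.3, 85.9, 79.5 and 89.0 CPM in the WT livers (log2 fold change 0.85, SE 0.0906, edgeR adjusted p = 0.0034). H2-K1, already the more abundant heavy chain, was at 401 and 434 CPM against 290, 321, 313, 273 and 296 CPM (0.50, SE 0.095, edgeR adjusted p = 0.0299). B2m was at 1161 and 1125 CPM against 846, 888, 878, 759 and 880 CPM (0.44, SE 0.098, edgeR adjusted p = 0.0511). In all 3 genes every KI liver was above every WT liver, and the 2 KI livers lay close together. With the shared mouse number as a block, H2-D1 was still called (0.79, edgeR adjusted p = 0.0101), and H2-K1 (0.47, edgeR adjusted p = 0.101) and B2m (0.42, edgeR adjusted p = 0.169) were not. Only numbers 1 and 2 occur in both genotypes, so that fit compared KI mice 1 and 2 with WT mice 1 and 2 alone.

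The inducible subunits rose as well. Psmb9 went from 16.3 ± 1.22 CPM (SD, n = 5) in WT livers to 28.8 and 32.6 CPM in the KI livers (log2 fold change 0.92, SE 0.119, edgeR adjusted p = 0.00713). Psmb8 went from 41.3 ± 3.91 CPM to 67.4 and 77.1 CPM (0.82, SE 0.115, edgeR adjusted p = 0.00952), and Psmb10 from 42.3 ± 2.56 CPM to 56.7 and 58.3 CPM (0.46, SE 0.0961, edgeR adjusted p = 0.041). The groups did not overlap in any of the 3 genes.

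Of the genes that move and load peptides, only Tap1 was called. It was at 54.9 and 61.7 CPM in the KI livers against 35.2, 40.6, 31.8, 38.1 and 37.5 CPM in the WT livers (log2 fold change 0.69, SE 0.102, edgeR adjusted p = 0.0116). Tap2, the other chain of the transporter, overlapped between the groups, at 36.6 and 38.3 CPM against 37.2, 40.4, 29.1, 29.4 and 29.2 CPM (0.20, SE 0.148, edgeR adjusted p = 0.532). Tapbp was at 184 and 209 CPM, above all 5 WT livers at 172, 171, 165, 153 and 155 CPM, and was not called (0.28, SE 0.0949, edgeR adjusted p = 0.162).

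Nlrc5, the coactivator, showed the largest fold change of the 10 in the liver. Its KI livers held 11.8 and 18.9 CPM and its WT livers 6.21, 8.09, 6.50, 5.81 and 8.20 CPM (log2 fold change 1.16, SE 0.211, edgeR adjusted p = 0.026). The KI livers were both above the WT livers but differed from each other more than in the other genes called.

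The number of calls in the liver rested on both KI mice. Without KI mouse 1, 5 of the 10 genes were called, and without KI mouse 2, H2-D1 alone was, while the direction stayed the same in all 10. A fit of all 21 libraries, which shares 1 estimate of the spread between tissues, called Tap1 alone of the 10 in the liver. It called 242 of all genes there.

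**Figure D3:**
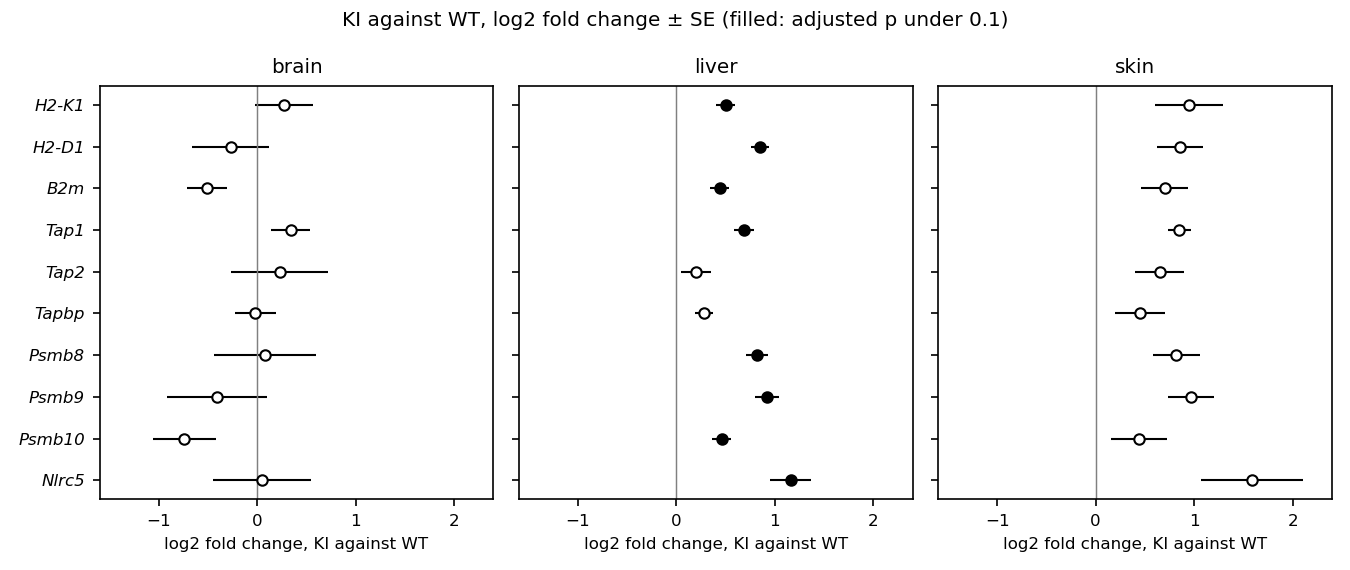
Log2 fold change of KI against WT mice (x axis) for the 10 genes (rows) in brain, liver and skin, with bars for the SE and filled points for genes with an adjusted p under 0.1. In the liver 8 points are filled, in the skin all 10 points lie above 0 with none filled, and in the brain the points lie on both sides of 0 and none is filled.

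In the skin none of the 10 genes was called in edgeR, where 4 of 16163 genes were called higher (0.0247%) and 0 lower. All 10 log2 fold changes were above 0, with a median of 0.84 beside -0.03 for all genes. At an unadjusted p under 0.05, 8 of the 10 were higher (all but Tapbp and Psmb10), as were 467 of all genes. Both KI skins lay above all 5 WT skins in 6 of the 10, namely H2-D1, B2m, Tap1, Psmb8, Psmb9 and Nlrc5, which 5.5% of all genes did. The summed leukocyte markers were at 421 and 537 CPM in the KI skins against 296 to 370 CPM in the WT skins, and their part in the result was not tested.

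Tap1 was the most even of the 10 in the skin. It was at 50.3 and 56.9 CPM in the KI skins and at 29.9, 27.7, 28.3, 26.5 and 33.9 CPM in the WT skins (log2 fold change 0.85, SE 0.120, edgeR adjusted p = 0.253). It was called by DESeq2 (adjusted p = 3.22e-05) and in the fit of all 21 libraries (edgeR adjusted p = 0.0129). Psmb9, at 11.2 and 15.6 CPM against 6.71 ± 1.27 CPM (SD, n = 5), was called by DESeq2 only (adjusted p = 0.0656; edgeR adjusted p = 0.695).

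The KI skins differed from each other in the other genes. H2-K1 was at 137 CPM in KI mouse 1, within the WT range of 61.8 to 143 CPM, and at 292 CPM in KI mouse 2. H2-D1 was at 79.1 and 139 CPM against a WT range of 42.8 to 67.1 CPM, and B2m at 399 and 600 CPM against a WT range of 200 to 352 CPM. Nlrc5 was at 5.80 and 11.8 CPM against a WT range of 1.19 to 5.42 CPM (log2 fold change 1.59, SE 0.518, edgeR adjusted p = 0.936). KI mouse 2 was the higher in all 10 genes, and WT mouse 4 was the lowest WT skin in all 10. The same skins stood at the ends of other marker sums. KI mouse 2 had the lowest epidermis sum (819 CPM, against 12104 CPM in KI mouse 1 and 1331 to 14783 CPM in WT skins) and the highest endothelial sum (1524 CPM, against 1117 CPM in KI mouse 1 and 831 to 1357 CPM in WT skins). WT mouse 4 had the highest epidermis and the lowest endothelial sum of all 7 skins. The part of these markers in the result was not tested. Without KI mouse 2 the log2 fold change of H2-K1 was 0.31, and that of Psmb10 was -0.08.

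In the brain none of the 10 genes was called in edgeR, and neither was any of the 16322 genes tested (0%). The median log2 fold change of the 10 was 0.02, with 5 above 0 and 5 below. At an unadjusted p under 0.05, 2 of the 10 were lower and none higher, beside 1275 and 457 of all genes. By DESeq2 none of the 10 was called in the brain, where it called 604 of all genes. In the simulated brain comparison, edgeR recovered 21.3% of genes changed 2-fold and 71.2% of genes changed 4-fold.

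The 2 genes were B2m and Psmb10. B2m was at 52.1 and 47.0 CPM in the KI brains and at 70.6, 84.7, 61.8, 48.4 and 66.8 CPM in the WT brains (log2 fold change -0.51, SE 0.201, edgeR adjusted p = 0.433), and the groups overlapped through WT mouse 4. Psmb10 was at 26.2 and 24.8 CPM, below all 5 WT brains at 35.3, 35.7, 31.7, 31.2 and 66.0 CPM (-0.74, SE 0.319, edgeR adjusted p = 0.468), as 11.2% of all genes were. With the shared mouse number as a block both were called lower (B2m -0.72, edgeR adjusted p = 0.0179; Psmb10 -0.55, edgeR adjusted p = 0.0324), as were 2165 of all genes in either direction. That fit set KI mice 1 and 2 against WT mice 1 and 2 only, since the other WT mice share no number with a KI mouse. Short genes sat low in KI brain: the 1702 tested genes with a longest transcript of 700 to 1400 bases, a range that holds B2m (860 bases), Psmb10 (1270) and Psmb9 (1351), had a median log2 fold change of -0.49, and the 12785 longer ones had a median of 0.03. The part of transcript length in these values was not tested. In the liver and the skin the medians of the short genes were 0.08 and -0.09.

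Tap1 went the other way in the brain, at 7.42 and 6.74 CPM in the KI brains against 4.93, 4.89, 5.33, 6.36 and 4.88 CPM in the WT brains. Both KI brains were above all WT brains, as they were in 17.7% of all genes, and Tap1 was not called (log2 fold change 0.34, SE 0.202, edgeR adjusted p = 0.61). H2-K1 (0.27), H2-D1 (-0.27), Tap2 (0.23), Tapbp (-0.02), Psmb8 (0.08), Psmb9 (-0.41) and Nlrc5 (0.05) overlapped between the groups.

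Differences of the KI effect from tissue to tissue were tested as interactions over all 21 libraries. None of the 10 genes was called in edgeR for liver against brain (1.77% of 18062 genes were called higher and 1.05% lower), skin against brain (0% in each direction) or skin against liver (0.0332% and 0.0664%). At an unadjusted p under 0.05 the effect was higher in liver than in brain for 4 genes, namely H2-D1 (log2 difference 1.01), B2m (0.85), Psmb9 (1.23) and Psmb10 (1.09), as it was for 1309 of all 18062 genes. It was higher in skin than in brain for 6 genes, beside 745 of all genes, and different between skin and liver for 0. DESeq2 called 3 genes for liver against brain (B2m, Psmb9 and Psmb10), where it called 1389 genes in all. It called B2m for skin against brain, among 56 genes, and none of the 10 for skin against liver. B2m, Psmb9 and Psmb10 all have transcripts of 700 to 1400 bases, a range with median log2 fold changes of -0.49 in KI brain and 0.08 in KI liver. Psmb5, Psmb6 and Psmb7, outside the 10 but in that range, had liver against brain differences of 0.57, 0.62 and 0.62, not called in edgeR. The part of transcript length in these differences was not tested.

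Each inducible catalytic subunit takes the place of a constitutive one in the proteasome core, Psmb8 that of Psmb5, Psmb9 that of Psmb6 and Psmb10 that of Psmb7. Their ratios per transcript length are given as a description, with no test. In the WT brains the ratio of Psmb8 to Psmb5 was 0.00922, 0.0319, 0.0280, 0.0161 and 0.0257, in the WT livers 0.898, 0.889, 0.965, 0.812 and 0.857, and in the WT skins 0.406, 0.433, 0.434, 0.270 and 0.503. In liver, Psmb8 RNA was thus nearly as abundant as Psmb5 RNA, and in brain it was a small part of it.

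In KI mice the Psmb8 to Psmb5 ratio was 1.39 and 1.63 in the liver and 0.562 and 1.01 in the skin, above all WT libraries of the same tissue. In the brain it was 0.0292 and 0.0431, and KI mouse 1 lay within the WT range. The KI mean was 1.63 times the WT mean there and 1.71 times in the liver. In the brain, mean Psmb8 was 4.18 TPM in KI and 3.36 TPM in WT mice, and mean Psmb5 was 116 and 152 TPM. In the liver, mean Psmb5 was 46.7 and 45.7 TPM. The log2 fold change of Psmb8 was 0.08 in the brain and 0.82 in the liver. The ratio of Psmb9 to Psmb6 was 0.161 and 0.189 in the KI livers against 0.0998 ± 0.00694 (SD, n = 5) in the WT livers, and 0.0718 and 0.0898 in the KI skins against 0.0359 ± 0.00804 in the WT skins. That of Psmb10 to Psmb7 was 0.451 and 0.483 in the KI livers against 0.341 ± 0.0231, and the groups overlapped in the skin. In the brain the Psmb9 to Psmb6 ratio was 0.00333 and 0.00315 in KI mice, within the WT range of 0.00143 to 0.00544.

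In the brain the Psmb10 to Psmb7 ratio was 0.226 and 0.228 for the KI libraries and 0.227 ± 0.0557 (SD, n = 5) for the WT libraries. Psmb7 itself had a log2 fold change of -0.72 in the KI brains (edgeR adjusted p = 0.27), so the lower Psmb10 stood beside a lower Psmb7. Psmb5 and Psmb6 were at -0.62 and -0.61 there and were not called in edgeR, and all 3 were lower at an unadjusted p under 0.05, as were 1275 of the 16322 genes tested. Psmb5 (871 bases), Psmb6 (798) and Psmb7 (1160) all belong to the short genes whose median was -0.49 in KI brain. In the liver the 3 constitutive subunits had log2 fold changes between 0.01 and 0.11, and none was called.

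**Figure D4:**
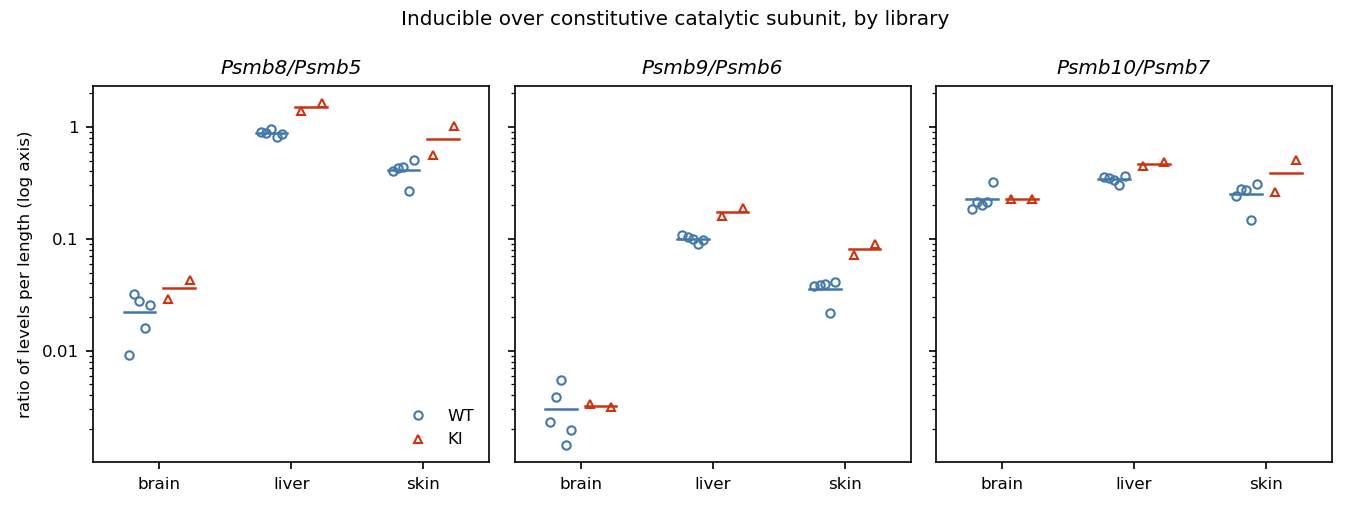
Ratio of each inducible to its constitutive catalytic subunit per transcript length (log axis) in brain, liver and skin, with circles for WT libraries, triangles for KI libraries and bars at the means. The Psmb8 to Psmb5 and Psmb9 to Psmb6 ratios are lowest in brain and highest in liver, and the KI livers lie above all WT livers in each of the 3 panels.

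The other genes of the route were followed in lists. Of 14 further genes of peptide supply and loading, none was called in any tissue in edgeR, with medians of -0.06, 0.07 and -0.03 for brain, liver and skin. At an unadjusted p under 0.05, 1 was lower in the brain and 2 were higher in the liver, beside 1275 and 1421 of all genes, and 0 differed in the skin. They include Psme1 and Psme2, subunits of the interferon-inducible proteasome activator, which had log2 fold changes of 0.16 and 0.19 in the liver, 0.15 and 0.16 in the skin and -0.50 in the brain for each. Among the interactions, Pomp of this list was called higher for liver against brain (log2 difference 1.08, edgeR adjusted p = 0.0371), as 1.77% of all genes were. Its mean was 450 TPM in KI and 750 TPM in WT brains, and 204 and 177 TPM in KI and WT livers.

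Of the other class I heavy chains, 15 could be tested in the liver, and 6 of them were called higher and none lower, beside 3.89% and 1.68% of all genes. They were H2-T22 (log2 fold change 2.13), H2-T10 (1.08), H2-M3 (0.85), H2-Q4 (0.82), H2-T23 (0.58) and Hfe (0.54). The list was drawn up by symbol, and not all of its members present peptides. Hfe, for example, takes part in iron uptake. The H2-T and H2-Q genes have near-identical copies, so the share of reads assigned to each is uncertain, and H2-T22 rested on 0.595 and 0.134 CPM as the means of the KI and WT livers. Of 13 tested in brain or skin none was called in edgeR, with medians of 0.15 and 0.51, and at an unadjusted p under 0.05, 1 was lower in the brain and 7 were higher in the skin, beside 1275 and 467 of all genes.

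Among 24 regulators upstream of the class I genes, Irf8 (log2 fold change 0.56, edgeR adjusted p = 0.0642) and Ifngr2 (0.38, edgeR adjusted p = 0.0403), a chain of the interferon-gamma receptor, were called higher in KI liver, as were 3.89% of all genes. None was called in brain or skin in edgeR, where 1 and 2 were higher at an unadjusted p under 0.05, beside 457 and 467 of all genes. Irf1, a factor that binds class I promoters, was at -0.08 in the liver, 0.36 in the skin and 0.53 in the brain, and Rfx5, a partner of NLRC5 at the promoter, was between 0.04 and 0.08.

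The 10 genes varied together when the tissues were pooled. After each tissue's mean was removed, the log2 CPM of each gene correlated over the 21 libraries with the mean of the other 9, from r = 0.659 for Tap1 to r = 0.92 for H2-K1. The 8 genes outside the list most like its mean, among 13650 compared, were Rtp4 (r = 0.923), Isg15 (0.917), Trim30a (0.909), Gm12250 (0.906), Tmem176a (0.901), Mndal (0.900), Ly6e (0.896) and Oasl2 (0.885). These values describe libraries that share mice and depth and include the difference between KI and WT mice. The mean log2 CPM of the 10 spread most in the skin, from 4.47 in WT mouse 4 to 6.21 in KI mouse 2. Those skins also stood at the ends of the epidermis and endothelial sums. The mean ran from 5.82 to 6.65 in the liver and from 2.22 to 3.12 in the brain. Correlations in each tissue alone were not examined.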

How the data were processed

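Per the study's methods and the submitters' processing notes, reads were aligned to mm9 with TopHat2 and assigned with HTSeq; the annotation and counting mode are not given in the sources used here. The authors deposited raw counts per gene symbol for each library. Of each library, between 30.4% and 38.1% of the entries stood on the HTSeq summary lines, which were left out of every test.

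The 2 KI libraries of a tissue were tested against its 5 WT libraries, and the tissues in 1 fit of the 15 WT libraries, with edgeR 4.0.16 on R 4.3.3 (filterByExpr, TMM, quasi-likelihood test). A gene counted as called at an adjusted p under 0.1 (Benjamini-Hochberg, all genes tested). Interactions were fitted over all 21 libraries. SE is the log2 fold change over the root of F. CPM used TMM factors over the 21 libraries; log2 CPM had a prior count of 2. TPM used the longest transcript of GENCODE on NCBIM37 (20824 of 24391 symbols, 95.9% of counts). Mice were taken from the library names, and p-values measure the spread between these mice only. Members and gene lists were chosen with earlier results of these data known. All 10 members are named, with the called genes of each list (for leukocyte markers the 5 largest changes) and the 8 most alike genes. A withheld item is not reported here.

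Same-numbered KI and WT libraries had mean correlations of deviations of -0.0245 (brain), -0.041 (liver) and 0.101 (skin), over 2 pairs each. On simulated counts edgeR recovered 59.2% of 2-fold liver changes and 23.3% of 2-fold skin changes. The alternatives were DESeq2 1.42.0 (size factors, Wald test), no filter beyond 1 count, an adjusted p of 0.05, a fit of all 21 libraries, the mouse number as a block, each mouse left out and, added after seeing the data, library totals. Promoters and figures used Python 3.11.15 with matplotlib 3.10.9.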

Additional observations from a re-analysis of the deposited data

Results flagged for a closer look

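In the brains of the 5 WT mice, mouse 5 stood apart from the other 4 for 2 of the genes. H2-D1 was at 34.0 CPM there, with the nearest other brain at 17.0 CPM, a gap of 0.793 of the whole range. Psmb10 was at 66.0 CPM, with the nearest other brain at 35.7 CPM, a gap of 0.87 of the range. The critical value for 5 samples is 0.71, and chance passes it in about 1 of 20 groups; 30 groups were examined and 2 passed. In the same brain the summed hepatocyte markers were at 2051 CPM, against 42.7 to 988 CPM in the other 4, and the summed leukocyte markers at 168 CPM, against 113 to 148 CPM. Their part in these values was not tested. Without this mouse the log2 fold change of Psmb10 in KI brain was -0.45 and passed the threshold (edgeR adjusted p = 0.0479), as did 1698 of all genes tested, against 0 with it, and that of H2-D1 was 0.09.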

How the results depend on the processing

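In KI against WT brain, with 0 genes called, the replicate block called 2 and leaving out each mouse gave 0 to 1. In the liver, with 8 called, the fit of all 21 libraries called 1 and leaving out each mouse gave 1 to 8; all-gene calls fell from 833 to 242 in that fit, to 232 without KI mouse 1 and to 56 without KI mouse 2, and rose to 1489 with DESeq2. In the skin, with 0 called, DESeq2 called 2 and the fit of all 21 libraries 1. Over all genes they called 107 and 23, against 4. Library totals called 5 in WT liver against WT skin, where 9 were called, and 14028 of all genes against 12346. For the KI effect in liver minus that in brain, with 0 called, DESeq2 called 3 and leaving out each WT mouse gave 0 to 2. The 2 were called without WT mouse 4, where 618 of all genes were, against 508 with it. For skin minus brain DESeq2 called 1. The other results kept their counts within 1.5 times. The cause of these changes was not tested.

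Leaving out each mouse gave -0.09 to 0.12 for Tapbp, -0.20 to 0.35 for Psmb8, -0.12 to 0.31 for Nlrc5 and -0.38 to 0.09 for H2-D1 in KI against WT brain, -0.08 to 0.86 for Psmb10 in skin and -0.31 to 0.01 for Psmb10 in WT brain against WT liver. Values that changed sign in the brain were H2-D1 with the replicate block (0.19) and without WT mouse 5 (0.09), and Tapbp in the fit of all 21 libraries (0.06), with the block (0.04) and without KI mouse 1 (0.07), WT mouse 2 (0.03) or WT mouse 5 (0.12). Psmb8 changed sign without KI mouse 2 (-0.20), WT mouse 1 (-0.10) or WT mouse 4 (-0.05), and Nlrc5 without KI mouse 2 (-0.12), WT mouse 1 (-0.11) or WT mouse 3 (-0.03). Tap2 in the liver was -0.03 with the block, and Psmb10 in the skin -0.08 without KI mouse 2. Psmb10 in WT brain against WT liver was 0.70 with library totals and 0.01 without WT mouse 3, and in WT liver against WT skin H2-D1 was -0.15 and Tap1 -0.38 with library totals.

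The labels give KI and WT mice shared numbers, but 2 pairs per tissue do not show that they pair the mice. With numbers 1 and 2 alone found in both genotypes, the other WT mice did not enter the block's estimate of KI against WT. In the liver the replicate block called 6 of the 10 genes, without H2-K1 (edgeR adjusted p = 0.101) and B2m (edgeR adjusted p = 0.169), beside 817 of all genes. It changed no count of the 10 genes between WT tissues. On simulated counts, 21.3% of 2-fold changes were recovered in the brain and 23.3% in the skin.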
